A study of Mus musculus with 17 samples.

Results

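Resting mouse plasmacytoid dendritic cells (pDC) that had been kept with leukaemia inhibitory factor (LIF) were compared with pDC kept in medium alone. The comparison used every array labelled as pDC with LIF (3 arrays, replicates 1, 2 and 3) or as pDC with medium (2 arrays, replicates 1 and 3), 5 of the 17 arrays of the series, and all 19751 genes with a probe set assigned to that gene alone. Bone marrow of C57BL/6 mice was the source, and the pDC were first enriched by magnetic negative selection and then sorted by flow cytometry on intermediate CD11c, B220 and SiglecH. LIF was given at 10 ng/ml for 20 to 24 h. The other 12 arrays came from pDC that also received an oligonucleotide, CpG-A or CpG-B, at 6 µg/ml for 19 to 23 h, with or without LIF given 1 h earlier (3 arrays for each of these 4 groups). The labels name no genetic change in any of the 6 groups. The labels do not say whether replicates were separate mice or cultures, so the p-values measure only the spread between these arrays.

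LIF is a cytokine of the interleukin-6 family. It binds a receptor made of LIFR and gp130 (gene Il6st), which activates JAK kinases and the transcription factor STAT3, and STAT3 in turn induces SOCS3, an inhibitor that binds gp130 and JAK and limits further signalling. Plasmacytoid DC are the specialised producers of type I interferon. They sense nucleic acids through TLR7 and TLR9 with the adaptor MyD88 and the factor IRF7, and their identity is maintained by the E protein TCF4 against its antagonist ID2.

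The deposited values were the digits of linear intensities whose decimal mark had been lost, so each log2 value is known only up to a multiple of 3.32, which is log2 of 10. Each difference below is therefore a nearest reading, the log2 difference between -1.66 and 1.66. A true change of more than 3.16-fold appears as a smaller one, usually of the other sign. Genes with an adjusted p below 0.05 (limma, moderated test, Benjamini-Hochberg over all genes) were called. The words read higher and read lower are kept for called genes with a reading no larger than 1.11 in size (2.15-fold); the alternative would then be an opposite change of at least 4.64-fold, which the table itself does not separate from the reading given. Beyond that limit the direction was left undecided and the other reading is given beside the nearest one. Absolute levels, and with them the presence of pDC or other markers in these cells, cannot be read from such values, so the labelled cell type was not checked. Per-array values are log2 differences from the mean of the 2 medium arrays.

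Few genes passed the test in resting pDC with LIF. The test called 160 of 19751 genes (0.810%): 54 with a higher reading (0.273%), 44 with a lower one (0.223%) and 62 with an undecided direction (0.314%). An unadjusted p below 0.05 was reached by 2036 genes (10.3%). The median reading over all genes was -0.02, and all 3 LIF arrays lay above both medium arrays for 2157 genes (10.9%) and below both for 2950 genes (14.9%). When each of the 5 arrays was left out in turn, the nearest readings of all 98 genes with a readable direction kept their sign. So did those of 37 of the 62 undecided genes. The other undecided genes changed over to the other reading in at least 1 fit. The limit on direction had already kept the readable genes away from the point where a reading changes over. Their kept sign therefore follows largely from that limit and does not show which reading holds. The number called depended on the medium group, which has only 2 arrays: it was 34 without medium replicate 1 and 16 without medium replicate 3, with the remaining medium array assumed to vary like the other groups. It was 88 without LIF replicate 1, 134 without LIF replicate 2 and 139 without LIF replicate 3, and 17 when the spread was taken from the 5 arrays alone. The call held in all 5 leave-one-out fits for 8 genes: Il13ra1, Lilr4b, Tbc1d4, Ak8, Socs3, Thra, Gbp4 and Ms4a4a.

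**Figure D1:**
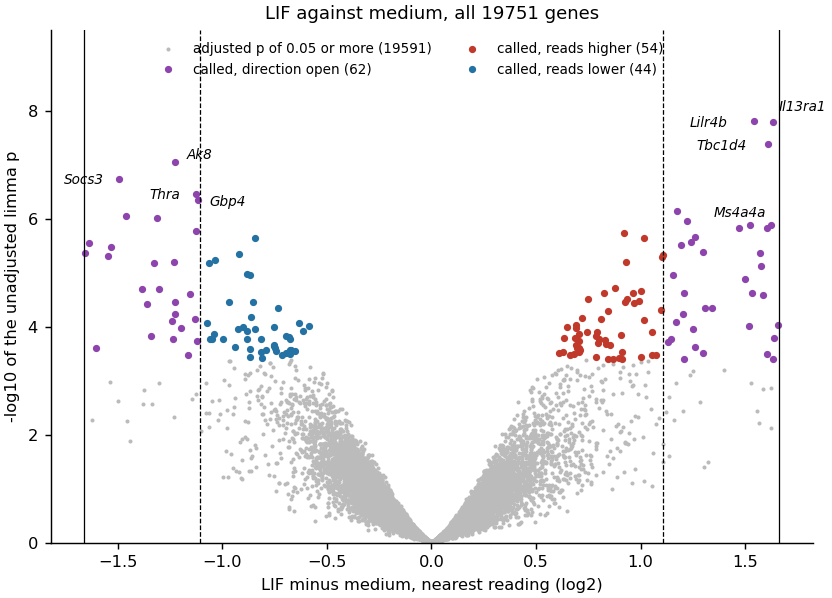
Nearest reading of LIF minus medium (log2, x axis) against the -log10 of the unadjusted limma p (y axis) for all 19751 genes. Grey points were not called, red points read higher (54), blue points read lower (44) and purple points were called with an undecided direction (62); dashed lines mark readings of 1.11 in size and solid lines the limits of 1.66. The 8 genes called in every leave-one-out fit are named, and each of them lies outside the dashed lines.

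The feedback inhibitor Socs3 was the only called gene among 21 measured members of the LIF receptor, JAK-STAT and SOCS list. The medium arrays read 0.28 and -0.28 and the LIF arrays -1.37, -1.70 and -1.41, so the groups did not overlap and the 3 LIF arrays lay close together. The difference was -1.49 ± 0.18 (SE, n = 3 LIF and 2 medium arrays; adjusted p = 0.000704, limma), which corresponds to a 2.81-fold lower level or, at the other reading of 1.83, a 3.56-fold higher one. These values cannot decide between the 2 readings. A second Socs3 probe set read 0.88 ± 0.28 (adjusted p = 0.22), with -2.44 as its other reading. Without medium replicate 1 the adjusted p of Socs3 was 0.0312, and with the spread of the 5 arrays alone it was 0.0539. The Socs3 promoter shown was picked from those of the gene that hold a match to TTCNNNGAA, the palindrome form that STAT factors bind. It holds 1 match, in capitals, beginning 154 bases before its annotated start. The 250 bases before that start are chr11:117969367-117969616, minus strand, GRCm38.p6, from RefSeq.
Socs3 promoter: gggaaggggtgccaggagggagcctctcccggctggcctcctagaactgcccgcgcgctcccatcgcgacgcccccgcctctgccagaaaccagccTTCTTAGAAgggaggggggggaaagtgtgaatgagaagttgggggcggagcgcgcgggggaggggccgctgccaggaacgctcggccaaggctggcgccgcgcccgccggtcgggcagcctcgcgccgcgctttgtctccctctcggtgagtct

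The receptor and the kinases above Socs3 were not called. Lifr, the ligand-binding chain, read 0.02 and -0.02 in medium and 0.24, 0.36 and 0.33 with LIF, a difference of 0.31 ± 0.12 (adjusted p = 0.38, limma). Il6st, the shared signalling chain, differed by -0.08 ± 0.15 and its groups overlapped. Stat3 differed by 0.20 ± 0.12 (adjusted p = 0.629, limma). The other members without a call lay between -0.36 (Tyk2, a JAK kinase) and 0.42 (Stat5b), including Socs1 at -0.05, Socs2 at 0.21 and Cish at -0.09. The median over the 21 genes was 0.05, against -0.02 over all genes, and 1 of the 21 was called, against 0.810% of all genes.

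Among 30 measured targets of STAT3, 6 were called, against 0.810% of all genes. Il4ra read higher, and Socs3, Bcl3, Saa3, Fgl2 and Ccnd1 had an undecided direction. The list had 1 of 30 members called as higher, against 0.273% of all genes, and its median was 0.24. Members had been chosen with earlier results of these data known, so these shares only describe the list. All LIF arrays lay above medium for 11 of the 30 genes (10.9% of all genes) and below for 3 (14.9%). Bcl3, an IκB-family co-regulator of NF-κB, read -0.02 and 0.02 in medium and 1.11, 0.79 and 1.60 with LIF (1.17 ± 0.23, or -2.15; adjusted p = 0.0216, limma). Saa3, an acute-phase protein, read 0.02 and -0.02 in medium and 1.55, 2.01 and 1.15 with LIF (1.57 ± 0.24, or -1.75). Both genes were clearly apart from medium in every LIF array, but which of the 2 readings holds, and with it the sign and the size of the step, does not follow from the digits. Fgl2, a fibrinogen-like immune regulator, read 0.09 and -0.09 in medium and -1.61, -1.95 and -1.40 with LIF (-1.65 ± 0.25, or 1.67), almost midway between both directions. Ccnd1, cyclin D1, read -1.05, -1.57 and -1.32 with LIF (-1.31 ± 0.18, or 2.01), against -0.06 and 0.06 in medium. Pim1, a survival kinase, read 0.20 and -0.20 in medium and 0.85, 0.55 and 0.53 with LIF and was not called (0.64 ± 0.20; adjusted p = 0.188, limma). Bcl6, a transcriptional repressor, had a reading of 1.03 without a call (adjusted p = 0.129), and Myc had one of 0.03. Of the 6 calls, Socs3 and Ccnd1 remained without medium replicate 1, where the adjusted p ranged from 0.0305 to 0.275, and Socs3 alone remained without medium replicate 3 (0.00939 to 0.152). Without LIF replicate 1, and likewise without LIF replicate 3, Bcl3 and Il4ra lost the call (adjusted p = 0.0546 and 0.104, and 0.0641 and 0.0652).

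**Figure D2:**
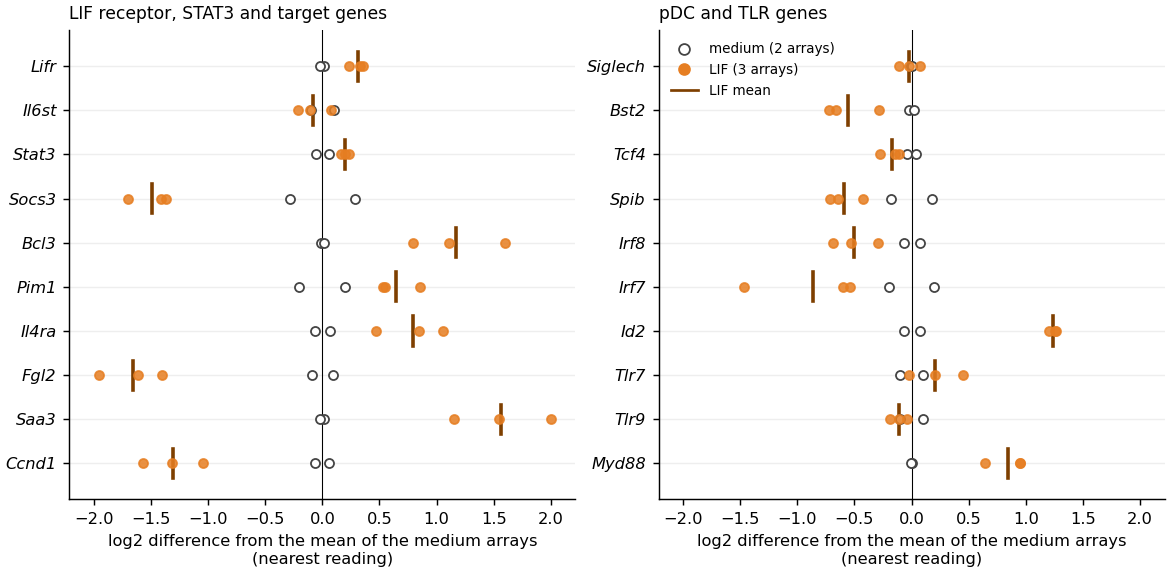
Log2 difference from the mean of the medium arrays (nearest reading, x axis) for single arrays, with 2 medium arrays as open circles, 3 LIF arrays as filled circles and the LIF mean as a bar. The left panel shows genes of LIF signalling and STAT3 targets, with Socs3 at -1.49 and Saa3 at 1.57; the right panel shows pDC and TLR genes, with Siglech near 0 and Id2 at 1.24.

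The palindrome TTCNNNGAA (either strand, since it reads the same on both) was counted in the window from 250 bases before to 50 after each gene start. It was present for 1386 of 15482 tested genes that had a promoter in the RefSeq table (8.95%). By call it was present for 10 of 42 genes that read higher (23.8%), 4 of 37 that read lower (10.8%) and 7 of 44 undecided (15.9%). A gene counted when any of its promoters held the palindrome. By promoter the share was 7.63% over all tested genes. It was 18.6% for genes that read higher, 8% for those that read lower and 16.7% for those undecided. A stricter form nested within it, TTCCNGGAA, was present for 220 of 15482 genes (1.42%) and for 3 of 123 called genes, Moxd1, Pros1 and Sbno2. These counts are descriptions of letters and were not tested. The promoters printed here, that of Socs3 included, were picked from those of their genes that held a match. The genes that read higher and held the palindrome included Il18r1, the binding chain of the interleukin-18 receptor, and Myd88, the TLR adaptor. Their promoters are shown with the matches in capitals, for Il18r1 at chr1:40465756-40466005 (plus strand, matches beginning 219 and 152 bases before the start) and for Myd88 at chr9:119340019-119340268 (minus strand, match beginning 46 bases before the start), both GRCm38.p6.
Il18r1 promoter: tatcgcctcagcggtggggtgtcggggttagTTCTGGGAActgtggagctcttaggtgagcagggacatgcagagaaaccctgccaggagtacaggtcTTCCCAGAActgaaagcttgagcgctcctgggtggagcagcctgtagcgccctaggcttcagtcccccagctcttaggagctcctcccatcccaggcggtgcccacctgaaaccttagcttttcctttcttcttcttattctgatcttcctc
Myd88 promoter: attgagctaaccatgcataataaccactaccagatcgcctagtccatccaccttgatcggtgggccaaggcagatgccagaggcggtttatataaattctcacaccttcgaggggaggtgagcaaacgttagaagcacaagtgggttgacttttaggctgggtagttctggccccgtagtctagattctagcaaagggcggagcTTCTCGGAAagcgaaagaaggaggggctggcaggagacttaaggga

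Growth factor and cytokine receptors were the list with the most genes that read higher. Its members, too, had been chosen with earlier results of these data known, so its shares are descriptions only. Of 27 measured members, 21 had a reading above 0, against 45.2% of all genes, and the median was 0.33. All 3 LIF arrays lay above medium for 16 of the 27 (10.9% of all genes) and below for 1 (14.9%). Of these genes, 4 were called as higher (0.273% of all genes were) and 1 had an undecided direction. Kit, the stem cell factor receptor, read 0.29 and -0.29 in medium and 1.06, 0.97 and 1.02 with LIF, a difference of 1.02 ± 0.20 (2.02-fold; adjusted p = 0.0208, limma). Il18r1 read 0.03 and -0.03 in medium and 0.99, 0.90 and 0.90 with LIF (0.93 ± 0.15, 1.91-fold; adjusted p = 0.00363, limma). For both genes the LIF arrays were tightly grouped. Ifngr1, the binding chain for interferon-γ, read 0.10 and -0.10 in medium and 0.83, 0.78 and 0.88 with LIF (0.83 ± 0.18, 1.78-fold; adjusted p = 0.0349, limma). Il4ra, shared by the interleukin-4 and interleukin-13 receptors, read -0.06 and 0.06 in medium and 1.05, 0.47 and 0.85 with LIF (0.79 ± 0.16, 1.73-fold; adjusted p = 0.0265, limma). Il13ra1, its partner chain, gave the strongest evidence of the list: medium arrays read 0.06 and -0.06 and LIF arrays 1.53, 1.49 and 1.88 (1.63 ± 0.17, or -1.69; adjusted p = 0.000157, limma). Its direction is undecided.

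The calls of Ifngr1 and Il4ra were the least stable of these receptors. Ifngr1 was not called in any leave-one-out fit (adjusted p = 0.161 without medium replicate 1, 0.288 without medium replicate 3, 0.0947 without LIF replicate 1, 0.0634 without LIF replicate 2 and 0.0805 without LIF replicate 3). Il4ra was called only without LIF replicate 2 (adjusted p = 0.00626), and lost the call without medium replicate 1 (0.275), medium replicate 3 (0.135), LIF replicate 1 (0.104) and LIF replicate 3 (0.0652). Kit lost it without medium replicate 3 (0.3) and LIF replicate 1 (0.0641), and Il18r1 without medium replicate 1 (0.057) and medium replicate 3 (0.0754). Among members without a call, Csf2rb2 read 0.83 (adjusted p = 0.082), Il21r 0.60, Csf1r 0.57 and Csf3r 0.55. The LIF-family receptor chain Osmr read -0.04, and Il6ra -0.03. Flt3, whose ligand drives pDC development, read 0.20, and Il3ra read -0.28, the lowest of the list.

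Of 25 measured members of the pDC surface and effector list, 2 were called (0.810% of all genes were), both without a direction, and 8 had a reading above 0, against 45.2% of all genes (median -0.10). Siglech, the receptor used for sorting, read 0.00 in both medium arrays and -0.02, 0.08 and -0.11 with LIF (-0.02 ± 0.15; adjusted p = 0.984, limma). Bst2, the antigen of pDC-depleting antibodies, read -0.02 and 0.02 in medium and -0.66, -0.72 and -0.29 with LIF (-0.56 ± 0.17; adjusted p = 0.174, limma). The Siglech groups overlapped and the Bst2 groups did not. Ptprf, a receptor tyrosine phosphatase, read -0.05 and 0.05 in medium and -1.27, -1.18 and -0.94 with LIF (-1.13 ± 0.16, or 2.20; adjusted p = 0.00208, limma). Cd209d, a C-type lectin, read 0.12 and -0.12 in medium and 1.56, 0.93 and 2.02 with LIF (1.50 ± 0.25, or -1.82; adjusted p = 0.00613, limma). Clec10a at -1.01, Havcr1 at -0.89, Lefty1 at 0.76 and Lag3 at 0.60 had no call. The 25 members include Klk1b1, which a synonym had put in place of Klk1.

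Among 20 transcription factors of the pDC programme and the E-protein and Id axis, Id2 alone was called (0.810% of all genes were). It read 0.07 and -0.07 in medium and 1.26, 1.20 and 1.26 with LIF, a difference of 1.24 ± 0.18 (2.36-fold, adjusted p = 0.00248, limma) with -2.08 as the other reading, so its direction is undecided. Tcf4, which ID2 opposes, differed by -0.18 ± 0.13 (adjusted p = 0.714, limma). Spib, an Ets factor of pDC, read -0.18 and 0.18 in medium and -0.71, -0.42 and -0.64 with LIF (-0.59 ± 0.16; adjusted p = 0.129, limma). Irf8 differed by -0.50 ± 0.15 (adjusted p = 0.147, limma) and Irf7 by -0.87 ± 0.21 (adjusted p = 0.0724, limma), with LIF arrays of Irf7 at -0.60, -1.47 and -0.53 against 0.19 and -0.19 in medium. All LIF arrays lay below medium for 8 of the 20 factors (14.9% of all genes) and above for 2 (10.9%). None of Tcf4, Spib, Irf8 and Irf7 passed the test over all arrays, and Irf7 passed it only without LIF replicate 3 (adjusted p = 0.0365). Ptprf, Cd209d and Id2 all lost their call without medium replicate 3 (adjusted p from 0.0578 to 0.117), and Cd209d also without medium replicate 1 (0.057).

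Of 23 genes for endosomal TLRs, their transport and their adaptors, 2 read higher (0.273% of all genes did). Myd88 read 0.00 in both medium arrays and 0.95, 0.64 and 0.95 with LIF, a difference of 0.85 ± 0.16 (1.80-fold; adjusted p = 0.0153, limma). Lgmn, a lysosomal protease that processes TLRs and antigen, read 0.09 and -0.09 in medium and 0.86, 0.59 and 1.12 with LIF (0.86 ± 0.18, 1.81-fold; adjusted p = 0.0349, limma). The receptors themselves did not pass the test: Tlr7 differed by 0.21 ± 0.16 and Tlr9 by -0.11 ± 0.13, and for both the groups overlapped. All LIF arrays lay below medium for 8 of the 23 genes (14.9% of all genes) and above for 3 (10.9%), and the median was -0.13. Myd88 and Lgmn lost their calls when medium replicate 1 (adjusted p = 0.154 and 0.173), medium replicate 3 (0.136 and 0.283) or LIF replicate 1 (0.062 and 0.0951) was left out, and Lgmn also when LIF replicate 3 was (0.107). Lgmn was also the 1 called gene of 12 for MHC class II presentation (0.810% of all genes were called). There Ciita read 0.71, H2-Eb1 0.64, Cd74 0.09 and H2-Oa -1.01, all without a call. None of 15 genes for MHC class I presentation was called.

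No type I or III interferon gene was called in resting cells with LIF (0 of 11, against 0.810% of all genes). All LIF arrays lay above medium for 1 of the 11, against 10.9% of all genes. Ifnb1 read 0.60 (adjusted p = 0.428, limma). Of 34 interferon-stimulated genes, 3 were called, against 0.810% of all genes. Oas3, an oligoadenylate synthetase, read -0.17 and 0.17 in medium and 1.25, 0.87 and 0.69 with LIF (0.94 ± 0.17, 1.91-fold; adjusted p = 0.0112, limma). Its relative Oas2 read 0.09 and -0.09 in medium and 2.24, 1.23 and 1.50 with LIF (1.66 ± 0.33, or -1.66), a reading at the very limit. Cxcl10, a chemokine for CXCR3+ lymphocytes, read lower: 0.03 and -0.03 in medium and -0.74, -1.39 and -1.04 with LIF (-1.06 ± 0.22, 2.08-fold; adjusted p = 0.0298, limma). The list was mixed, with Ifih1 at 0.81, Rtp4 at 0.82, Mx1 at 0.04, Rsad2 at 0.13 and Mx2 at -0.56, none of them called, and a median of 0.17. All LIF arrays lay above medium for 11 of the 34 genes (10.9% of all genes) and below for 5 (14.9%).

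Among 18 NF-κB genes, Nfkbie, which encodes the inhibitor IκBε, read lower (-0.86 ± 0.17, 1.82-fold; adjusted p = 0.0192, limma), with LIF arrays at -0.89, -1.0 and -0.70 and medium arrays at -0.04 and 0.04. Bcl3, described above, was the other called gene (2 of 18, against 0.810% of all genes). Of 27 inflammatory cytokines and chemokines, 3 were called (0.810% of all genes were), namely Cxcl10, Il1b and Ccl4. Il1b read 0.18 and -0.18 in medium and 1.52, 1.32 and 0.91 with LIF (1.25 ± 0.25, or -2.07; adjusted p = 0.025, limma). Ccl4, an inflammatory chemokine, read 0.41 and -0.41 in medium and 1.62, 1.83 and 1.15 with LIF (1.53 ± 0.27, or -1.79; adjusted p = 0.00951, limma). None of these 7 interferon, NF-κB and cytokine genes (Oas2, Oas3, Cxcl10, Nfkbie, Bcl3, Il1b and Ccl4) was called without medium replicate 1 (adjusted p from 0.109 to 0.256) or without medium replicate 3 (0.0564 to 0.267). Without LIF replicate 1, 3 of the 7 were called (adjusted p from 0.0283 to 0.0974), without LIF replicate 2 also 3 (0.00826 to 0.104), and without LIF replicate 3 they were 4 (0.00818 to 0.0641).

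Of 24 inhibitory and lectin receptors, 2 were called (0.810% of all genes were). Cd300a, an inhibitory receptor for phospholipids, read higher (1.06 ± 0.24, 2.08-fold; adjusted p = 0.0441, limma), with LIF arrays at 1.28, 0.54 and 1.35 and medium arrays at -0.06 and 0.06. Lilrb4a, an inhibitory leukocyte receptor, read -0.11 and 0.11 in medium and -1.88, -0.89 and -1.83 with LIF (-1.53 ± 0.23, or 1.79; adjusted p = 0.00276, limma). Its close relative Lilr4b read 0.09 and -0.09 in medium and 1.42, 1.81 and 1.39 with LIF (1.54 ± 0.16, or -1.78; adjusted p = 0.000157, limma). The nearest readings of this gene pair have opposite signs. At 1.54 and 1.79, or at -1.78 and -1.53, both would have the same sign. Probes of near-identical genes can share signal, which was not tested here. Cd69, an early activation marker and the only called gene of 20 for co-stimulation and maturation, read 0.44 and -0.44 in medium and 1.20, 1.19 and 1.50 with LIF (1.30 ± 0.20, or -2.02; adjusted p = 0.0031, limma). Without medium replicate 1, Cd300a (adjusted p = 0.328) was not called, and without medium replicate 3 neither Cd300a (0.211), Lilrb4a (0.0754) nor Cd69 (0.0939) was. Cd300a also lost its call without LIF replicate 1 (0.169) and LIF replicate 3 (0.125).

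Markers of other cell types that a bone marrow sort could hold included 4 called genes. Over all genes, 0.810% were called. Of 18 macrophage and monocyte genes, Msr1, a scavenger receptor, was called (1.31 ± 0.24, or -2.01; adjusted p = 0.014, limma), and the median was 0.10. Of 16 conventional DC genes, Id2 (direction undecided) and Cd8a were called, and of 13 stem and progenitor genes, Kit. The conventional DC genes read from -0.53 to 1.24, with a median of 0.12. All LIF arrays lay above medium for 4 of the 16 (10.9% of all genes) and below for 4 (14.9%). Cd8a, which marks a DC subset and some pDC, read -0.27 and 0.27 in medium and 1.03, 1.07 and 1.20 with LIF (1.10 ± 0.17, 2.14-fold; adjusted p = 0.00327, limma). None was called of 14 neutrophil, 17 B-cell, 17 T and NK cell, 9 erythroid and platelet and 13 mast cell, basophil and eosinophil genes. The neutrophil genes had wide readings, from -1.50 for Mpo (adjusted p = 0.141) to 0.55 for Csf3r. Without medium replicate 1 the adjusted p was 0.124 for Msr1 and 0.127 for Cd8a, and without medium replicate 3 it was 0.152 for Msr1. The part of other cells in the differences was not tested, and with RNA from sorted pools a change in the number of cells of one kind and a change per cell cannot be told apart.

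Other functions had at most 1 called member each (0.810% of all genes were called). Gsr, glutathione reductase, read higher among 21 stress and redox genes (1.01 ± 0.15, 2.02-fold; adjusted p = 0.00225, limma), with LIF arrays at 0.94, 1.27 and 0.83 and medium arrays at 0.02 and -0.02. Atf6, a sensor of the unfolded protein response, read higher (0.68 ± 0.14; adjusted p = 0.0298, limma) among 24 genes of that response. Ctsc, the protease cathepsin C, read higher (0.71 ± 0.16; adjusted p = 0.0406, limma) among 25 lysosomal genes, and Btg2, an antiproliferative early gene, read lower (-0.75 ± 0.15; adjusted p = 0.024, limma) among 21 immediate early genes. Ccnd1 was the 1 called gene of 28 for the cell cycle. No gene was called of 16 for glycolysis, 18 for cholesterol synthesis, 26 of the respiratory chain, 18 of the BCL2 family and cell death and 21 integrins and adhesion molecules. The glycolysis genes counted include Pigq, which a synonym had put in place of Gpi1. The integrin list had a median of 0.26 and its highest reading, 0.97, in Itgam (adjusted p = 0.188, limma). Gsr kept its call without medium replicate 1 (0.0396) and lost it without medium replicate 3 (0.0578). Atf6 and Btg2 were called only without LIF replicate 2 (adjusted p = 0.0334 and 0.0129), and Ctsc in no leave-one-out fit (0.061 to 0.457). Atf6 and Btg2 lost the call without medium replicate 1 (0.142 and 0.0743), medium replicate 3 (0.275 and 0.284), LIF replicate 1 (0.111 and 0.0891) and LIF replicate 3 (0.0649 and 0.0673).

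**Figure D3:**
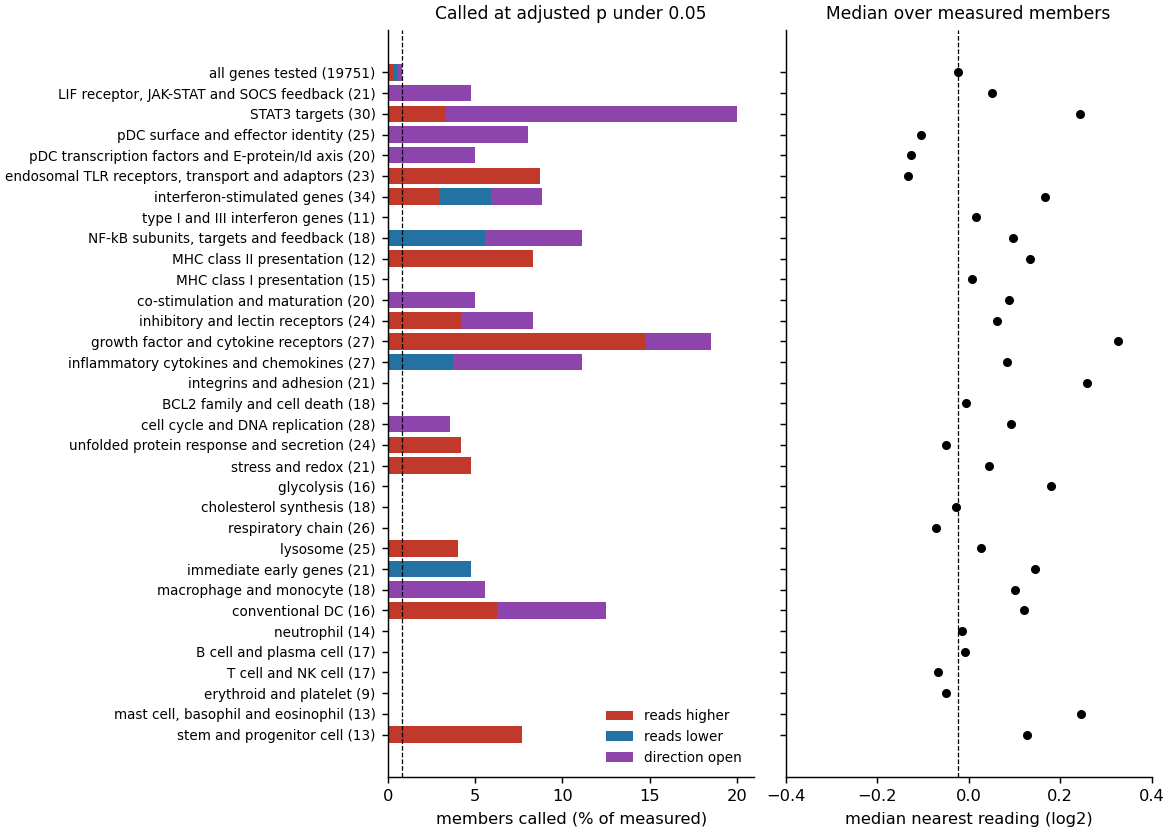
Left, percent of the measured members of each gene list (number measured in brackets) that were called at an adjusted p below 0.05, divided into genes that read higher (red), read lower (blue) or had an undecided direction (purple); right, the median nearest reading of each list (log2). Dashed lines mark all genes tested, at 0.810% called and a median of -0.02. STAT3 targets (6 of 30) and growth factor and cytokine receptors (5 of 27) had the highest shares called. Members and lists were chosen with earlier results of these data known, so the shares are descriptions and no test of enrichment.

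The largest increases whose direction could be read were led by Dennd4a, a DENN-domain exchange factor for Rab proteins. It read -0.07 and 0.07 in medium and 1.25, 0.98 and 1.08 with LIF, a difference of 1.10 ± 0.17 (2.15-fold; adjusted p = 0.00319, limma). The readings of its 9 probe sets ran from 0.57 to 1.23, and 2 of the 9 were called in a fit of all probe sets. Next came Cd8a, Atp8b4, a phospholipid flippase (1.10 ± 0.21), and B3gnt5, a glycosyltransferase of glycosphingolipid synthesis (1.08 ± 0.24). Pde3b, a phosphodiesterase that degrades cyclic AMP, had the most uniform arrays, with 0.00 in both medium arrays and 1.04, 0.98 and 0.99 with LIF (1.00 ± 0.18; adjusted p = 0.0094, limma). Slpi, a secreted inhibitor of neutrophil proteases, read -0.05 and 0.05 in medium and 0.96, 0.90 and 1.11 with LIF (0.99 ± 0.18; adjusted p = 0.012, limma). The remaining genes of the 12 largest increases were Cd300a, the long non-coding RNA Dubr (1.05), Kit, Gsr, Tm6sf1 (1.00) and Cpeb2, which binds messenger RNA tails (0.97). Of these 12 genes, Gsr and Kit were still called without medium replicate 1 (adjusted p of the others from 0.0802 to 0.448), Cd8a alone without medium replicate 3 (highest adjusted p, 0.3, for Kit), 7 without LIF replicate 1, 11 without LIF replicate 2 and 10 without LIF replicate 3.

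Among the 12 largest decreases whose direction could be read, Sik1, a salt-inducible kinase, read -0.23 and 0.23 in medium and -1.17, -1.09 and -0.85 with LIF (-1.04 ± 0.16, 2.05-fold; adjusted p = 0.00355, limma). Trib1, a pseudokinase that directs the degradation of C/EBP proteins, read 0.00 in both medium arrays and -0.92, -0.91 and -0.93 with LIF (-0.92 ± 0.14, 1.89-fold; adjusted p = 0.00317, limma). The 3 LIF arrays of Trib1 were nearly the same. Egfr, the epidermal growth factor receptor, read -0.03 and 0.03 in medium and -0.90, -1.40 and -0.60 with LIF (-0.97 ± 0.18; adjusted p = 0.012, limma). Tmem163, a zinc transporter of vesicles, read -0.02 and 0.02 in medium and -1.12, -0.82 and -1.26 with LIF (-1.07 ± 0.17; adjusted p = 0.00363, limma). Gna15, a G protein subunit of blood cells, differed by -1.0, and Ndrg1, a gene induced by stress and hypoxia, by -1.05. Heg1 (-1.07), Cxcl10, Zfp661 (-1.04), Spata13 (-0.94), Mfhas1 (-0.93) and R3hdm4 (-0.90) completed the 12. A second Heg1 probe set read -0.50 and was not called (adjusted p = 0.424). Of these 12 genes, Sik1 alone was called without medium replicate 1 (highest adjusted p, 0.378, for Ndrg1) and none without medium replicate 3 (0.0696 to 0.3); 6 were called without LIF replicate 1, 5 without LIF replicate 2 and 9 without LIF replicate 3.

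**Figure D4:**
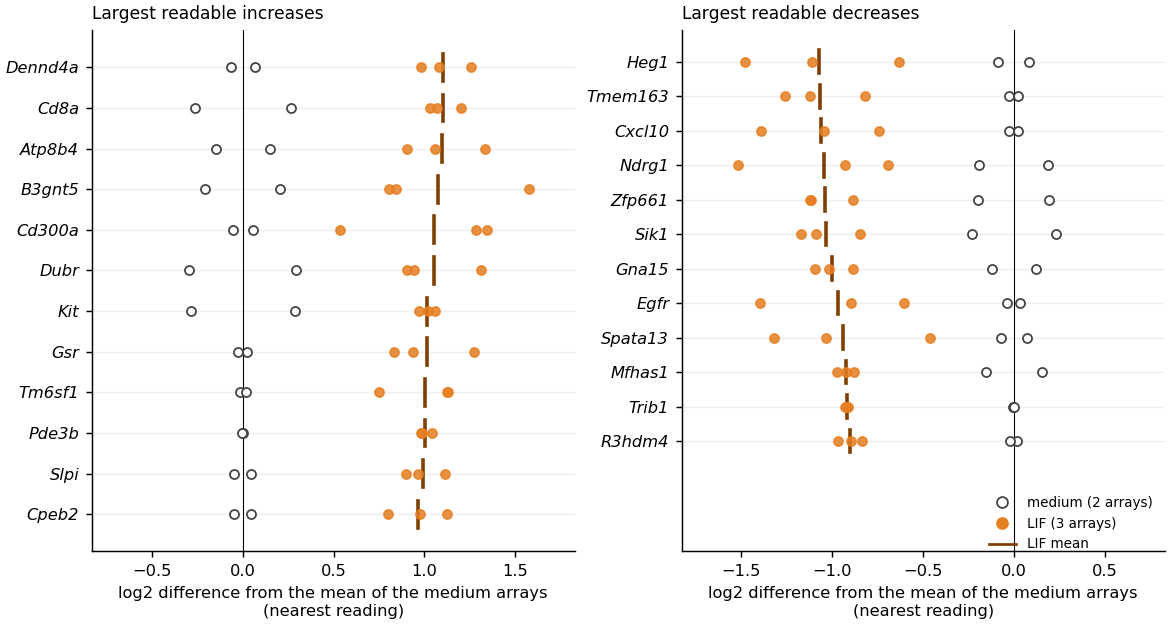
Log2 difference from the mean of the medium arrays (nearest reading, x axis) for single arrays of the 12 called genes with the largest increase (left) and the 12 with the largest decrease (right) among those whose direction could be read; open circles are the 2 medium arrays, filled circles the 3 LIF arrays and bars the LIF mean. Genes were picked only where the LIF arrays lie wholly on one side of the medium arrays. They run from Dennd4a at 1.10 to Cpeb2 at 0.97 and from Heg1 at -1.07 to R3hdm4 at -0.90.

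Of the 8 genes called in every leave-one-out fit, none had a readable direction. Besides Socs3, Il13ra1 and Lilr4b they were Tbc1d4, Ms4a4a, Gbp4, Thra and Ak8. Tbc1d4, a Rab GTPase-activating protein of glucose transport, read 0.15 and -0.15 in medium and 1.82, 1.45 and 1.56 with LIF (1.61 ± 0.18, or -1.71; adjusted p = 0.000273, limma). Ms4a4a, a tetraspan surface protein of myeloid cells, read -0.08 and 0.08 in medium and 1.52, 1.39 and 1.50 with LIF (1.47 ± 0.21, or -1.85; adjusted p = 0.00193, limma). Gbp4, an interferon-inducible guanylate-binding protein, read 0.09 and -0.09 in medium and -0.84, -1.35 and -1.15 with LIF (-1.12 ± 0.14, or 2.21; adjusted p = 0.00126, limma). Thra, a thyroid hormone receptor, read -0.12 and 0.12 in medium and -0.91, -1.24 and -1.23 with LIF (-1.13 ± 0.14, or 2.20; adjusted p = 0.00111, limma). Gbp4 and Thra lay just outside the limit for reading a direction, and Dennd4a and Cd8a (both 1.10) just inside it. Ak8, an adenylate kinase, read 0.11 and -0.11 in medium and -1.24, -1.25 and -1.18 with LIF (-1.22 ± 0.14, or 2.10; adjusted p = 0.000435, limma). Of 269 microRNA genes tested, 2 were called (0.810% of all genes were), Mir181a-1 (-1.60, or 1.72) and Mir421 (1.26, or -2.06), and neither was called in any leave-one-out fit (lowest adjusted p 0.0649 and 0.0623, highest 0.984 and 0.308).

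The same genes were then read in cells that also received CpG, comparing CpG-A + LIF with CpG-A and CpG-B + LIF with CpG-B. The means of these arrays do not enter the comparison in medium, but the arrays contribute to its estimate of the spread. CpG oligonucleotides carry unmethylated CG dinucleotides and trigger TLR9. LIF gave 1 called gene on top of CpG-A (0.00506%; 6.08%, or 1200 genes, at an unadjusted p below 0.05), Ifna12, an interferon-α (-1.58, direction undecided), and 12 on top of CpG-B (0.0608%; 7.74%, or 1529 genes, at an unadjusted p below 0.05). The call of Ifna12 held in none of the 6 fits that left out 1 of its arrays (adjusted p from 0.0519 to 0.119, limma). The 12 calls with CpG-B became 19 with the replicate number as a block, 10 of the 12 among them. They fell to 1 without CpG-B + LIF replicate 1, likewise to 1 without CpG-B replicate 2, to 4 without CpG-B replicate 3, to 5 without CpG-B + LIF replicate 3 and to 7 without CpG-B replicate 1. Of the 54 genes that read higher with LIF in medium, 37 had a reading above 0 with CpG-A and 30 with CpG-B, against 51.0% of all genes in each. Of the 44 that read lower, 36 had a reading below 0 with CpG-A and 32 with CpG-B, against 49.0% of all genes in each. The sizes were small: the median over the 54 genes was 0.10 with CpG-A and 0.02 with CpG-B, and over the 44 genes -0.18 and -0.14. In medium, where these genes had been chosen, the medians were 0.83 and -0.83, and a part of any fall in size follows from that choice. Only Cdh1, E-cadherin, was called again: it read 0.93 ± 0.17 in medium (adjusted p = 0.012, limma) and -0.85 ± 0.15 with CpG-B (adjusted p = 0.0443, limma). Btg2 at -0.69 and Trib1 at -0.54 with CpG-B, and Il18r1 at 0.26, kept the sign they had in medium without a call. Others did not keep it: with CpG-B, 24 of the 54 genes lay below 0, Myd88 and Ctsc (both -0.12) among them. Likewise 12 of the 44 genes lay above 0. Cdh1 in medium had an adjusted p of 0.144 when medium replicate 1 was left out and of 0.115 when medium replicate 3 was. With CpG-B it lost the call without CpG-B + LIF replicate 1 (adjusted p = 0.307), CpG-B + LIF replicate 2 (0.12), CpG-B replicate 2 (0.199) and CpG-B replicate 3 (0.154).

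**Figure D5:**
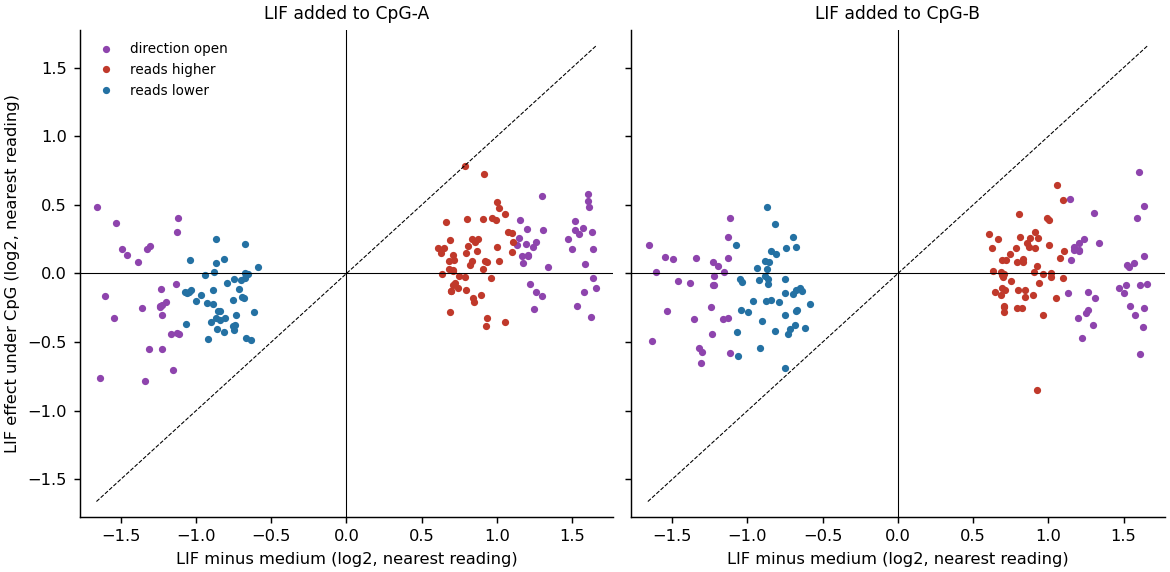
LIF effect in medium (nearest reading, log2, x axis) against LIF effect in cells with CpG-A (left) or CpG-B (right; y axis, log2) for the 160 genes called in medium; red genes read higher, blue genes read lower and purple genes had an undecided direction in medium, and the dashed line marks equal effects. Most points lie near 0 on the y axis, where the medians of the 54 red genes are 0.10 and 0.02 and those of the 44 blue genes -0.18 and -0.14.

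The LIF effect with CpG was tested against that in medium as an interaction. The difference was called for 10 genes with CpG-A (0.0506%; 7.03%, or 1388 genes, at an unadjusted p below 0.05) and for 27 with CpG-B (0.137%; 9.87%, or 1949 genes, at an unadjusted p below 0.05). All 10 and 21 of the 27 were also among the 160 genes called in medium; both tests use the same LIF and medium arrays. Socs3 differed by -1.49 in medium, by 0.18 ± 0.16 with CpG-A and by 0.11 ± 0.16 with CpG-B, so that the interactions were 1.67 ± 0.24 (adjusted p = 0.021, limma) and 1.60 ± 0.24 (adjusted p = 0.0092, limma). If Socs3 rose with LIF in medium, at its other reading, the interactions would be -1.65 and -1.72. Either way the step of Socs3 in medium had no counterpart of that size at the nearest readings with CpG. Il13ra1 differed by 1.63 in medium, 0.31 with CpG-A and -0.25 with CpG-B, and Thra by -1.13, 0.31 and 0.27. Casp4, the inflammatory caspase-11 of mice, read 0.04 and -0.04 in medium and 1.26, 1.56 and 0.84 with LIF (1.22, or -2.10), but -0.08 with CpG-A and -0.47 with CpG-B. Without medium replicate 3 the adjusted p of Casp4 in medium was 0.0536. The LIF effect on Cdh1 differed between CpG-B and medium by -1.78 ± 0.23 (adjusted p = 0.00229, limma). Taken to its own nearest reading, this interaction was 1.54 (adjusted p = 0.0094, limma), of the opposite sign. When each interaction was itself taken to its nearest reading, 2 were called with CpG-A and 19 with CpG-B. The signs were not stable: of the 31 interactions also called in medium, 16 turned their sign under at least 1 alternative, those of Socs3 and Il13ra1 among them. Leaving out single arrays gave 1 to 31 called interactions with CpG-A and 5 to 37 with CpG-B, and the replicate block gave 30 and 53.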

How the data were processed

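Total RNA of sorted mouse pDC was hybridised to 17 single-channel Affymetrix Gene ST arrays; the submitters' processing notes name RMA without a version, and its other steps were not stated there. Values as deposited are in another unit than any usual one: per the file, 419559 of 419560 cells are whole numbers of up to 10 digits, which are the digits of linear intensity values without their decimal mark. No test of number format restored the mark (at most 0.511% of cells were exact single-precision numbers, and at most 4.095% lay on a decimal log2 grid, where chance gives 4%), so differences were analysed as the folded log2 values described in the text, as had been laid down for that case. No table column lacked a sample.

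Of 24680 probe sets, 21354 had 1 gene symbol, 1275 several and 2051 none. For 893 genes with several probe sets, the one with the most listed accessions was used. Arrays were unfolded around their group mean, and limma 3.58.1 (R 4.3.3) estimated a mean for each of the 6 groups from the 17 arrays (residual degrees of freedom 11, median within-group SD 0.190). Contrasts were taken to their nearest reading, interactions were not, and p-values were adjusted by Benjamini-Hochberg over 19751 genes and called below 0.05. The fit was tested on simulated data. The error there was taken against folded values, so the simulation does not show which reading holds. Named genes were the 12 largest readable increases and decreases, picked where all LIF arrays lay on one side of both medium arrays. Also named were called list members (up to 5 per list and direction) and 16 genes of LIF signalling and pDC function. The 5 largest interactions also called in medium were named too. Genes called in every leave-one-out fit, list members without a call and the remaining genes were named after their values were seen. Members and lists were chosen with earlier results of these data known, and the 1.11 limit on direction after the data were seen. The number of arrays limits the precision. The labels do not say what a shared replicate number marks. Deviations of same-numbered arrays correlated at -0.0235 and -0.0202 between LIF and medium. They correlated at 0.0751, 0.1696 and 0.0146 between CpG-A + LIF and CpG-A. Between CpG-B + LIF and CpG-B they correlated at 0.1255, 0.2429 and 0.1426, each above 0.1. The main fit took none of these arrays as pairs, and the replicate number entered only as a block in an alternative fit. Alternatives were a replicate block, centring, another probe set per gene, the 5 arrays alone and leaving out each array.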

Additional observations from a re-analysis of the deposited data

Results flagged for a closer look

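For 22 genes the LIF effect in cells with CpG differed from the LIF effect in medium by the interaction test, and the gene was also called in medium. All these values are differences of nearest readings on the log2 scale. Where the effect in medium has an undecided direction, or the interaction has another sign at its own nearest reading, the sign of the interaction is undecided too.

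With CpG-A, the interaction was above 0 for Fgl2 (2.14), Lilrb4a (1.90), Socs3 (1.67), Olfm1 (1.60) and Thra (1.43). It was below 0 for Eid3 (-1.94), Il13ra1 (-1.33), Cdh1 (-1.31), Casp4 (-1.30) and Lilr4b (-1.26). When the interaction was taken to its own nearest reading, Thra (adjusted p = 0.014, limma) and Socs3 (0.0245) remained called, Socs3 with the opposite sign (-1.65), while Casp4, Cdh1, Il13ra1, Lilr4b and Olfm1 each had 0.0586 and Lilrb4a (0.169), Eid3 (0.183) and Fgl2 (0.36) lay further from the threshold.

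With CpG-B, the interaction was above 0 for Fgl2 (1.86), Slc9a2 (1.67), Socs3 (1.60), Olfm1 (1.41), Thra (1.39), Ptprf (1.24) and Ak8 (1.21). It was below 0 for Eid3 (-2.02), Ddx60, a helicase of antiviral defence (-1.88), Il13ra1 (-1.88), Cdh1 (-1.78), Lilr4b (-1.78), Tbc1d4 (-1.69), Casp4 (-1.69), Cd69 (-1.67), Ms4a4a (-1.57), the protease inhibitor Spint1 (-1.52), Myof, a membrane-repair ferlin (-1.40), Cttnbp2nl (-1.27), Moxd1 (-1.08) and Gsr (-1.04). Among these, Cdh1, Cttnbp2nl, Gsr and Moxd1 read higher in medium, and the direction of the others in medium is undecided. At its own nearest reading the interaction of Cdh1 was 1.54 (adjusted p = 0.0094, limma), of the opposite sign, and those of Casp4 (1.63), Cd69 (1.65), Il13ra1 (1.44), Lilr4b (1.54) and Tbc1d4 (1.63) were likewise called with the opposite sign. Taken to their own nearest reading, Ddx60, Eid3 and Fgl2 (each adjusted p = 0.115, limma), Slc9a2 (0.0588), Gsr (0.0567) and Olfm1 (0.0523) were no longer called.

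The interactions use the same LIF and medium arrays as the calls in medium, so the 2 sets of calls are not independent of each other.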

How the results depend on the processing

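Among the interactions also called in medium, 16 of 31 turned their sign under at least 1 alternative; a reading near 1.66 in size can pass over to its other reading. At the interaction's own nearest reading this gave, with CpG-A, 1.38 for Eid3, -1.18 for Fgl2, -1.42 for Lilrb4a and -1.65 for Socs3, and with CpG-B, 1.63 for Casp4, 1.65 for Cd69, 1.54 for Cdh1, 1.44 for Ddx60, 1.31 for Eid3, -1.46 for Fgl2, 1.44 for Il13ra1, 1.54 for Lilr4b, -1.66 for Slc9a2 and 1.63 for Tbc1d4. The replicate block gave 1.91 (CpG-A) and 1.35 (CpG-B) for Il13ra1, and the most variable probe set, a different one for this gene, -0.93 and -0.84 for Socs3. Leaving out single arrays gave, with CpG-A, -2.16 to 1.31 for Eid3, -1.16 to 2.47 for Fgl2, -1.47 to 1.94 for Il13ra1, -1.10 to 2.00 for Lilrb4a and -1.37 to 1.77 for Socs3. With CpG-B it gave -1.80 to 1.22 for Cd69, -1.99 to 1.25 for Ddx60, -2.17 to 1.23 for Eid3, -1.44 to 2.04 for Fgl2, -1.98 to 1.39 for Il13ra1, -1.42 to 1.86 for Slc9a2, -1.44 to 1.71 for Socs3 and -1.82 to 1.55 for Tbc1d4. For LIF against medium, readings under each alternative are given as those nearest to the reading over all arrays, by which no called gene changed sign. That choice itself keeps a large reading from changing sign, so it is no measure of stability for the undecided genes. At their own nearest readings, all 98 readable genes kept their sign in every leave-one-out fit, as did 37 of the 62 undecided genes. For the readable genes this follows largely from the limit on direction, so it does not show which reading holds. Of the 160 genes called for LIF against medium, 155 remained called after centring each array on its median deviation (156 called in all). The median deviations lay between -0.0190 and 0.0174, so centring moved the values little. With the most variable probe set per gene 145 remained (146 called), and 16 with the spread of the 5 arrays alone (17 called). Only 14 of the 160 genes have several probe sets, so for the others the most variable probe set is the one already used. Where it was another one, Dennd4a (adjusted p = 0.267, limma), Igsf10 (0.715), Ppargc1a (0.319), Socs3 (0.222), Tet1 (0.303) and Ube2h (0.0604) lost the call. Plscr1 (0.0277) kept it. Leaving out single arrays gave 16 to 139 called genes for LIF against medium, 0 to 1 for LIF added to CpG-A, 1 to 9 for LIF added to CpG-B, 1 to 31 for the interaction with CpG-A and 5 to 37 for that with CpG-B; where 1 medium array was left, it was assumed to vary like the other groups. The main fit took no arrays as pairs. With a replicate block over all arrays, 216 genes were called for LIF against medium (147 of the 160 among them). The block gave 12 for LIF added to CpG-A and 19 for LIF added to CpG-B. For the interactions it gave 30 with CpG-A and 53 with CpG-B. Taking each interaction to its own nearest reading, an alternative chosen after seeing the data, left 2 and 19. The cause of these changes in number was not tested, except that fewer arrays were fitted where some were left out. A filter on low values, a trended prior variance and the highest-mean probe set need levels that the digits do not give and were not run, nor was a fit of restored values. Signal over background is unknown, so weakly expressed genes could not be set apart.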
